A study of Mus musculus with 11 samples.

Results

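Oxidative phosphorylation, the making of ATP from the electrons of fuel molecules, is carried out in mitochondria by 5 protein complexes whose genes lie in 2 genomes. Its genes were taken from the deposited counts by symbol: those beginning with Nduf, Uqcr, Atp5 or mt-, those beginning with Cox and a digit from 4 to 8, and Sdha, Sdhb, Sdhc and Sdhd, without the 15 entries marked as pseudogenes. The rule found 139 of 57186 gene entries. Of these, 102 were nuclear and 37 mitochondrial (13 mRNAs, 2 rRNAs and 22 tRNAs). Expression was measured by bulk RNA sequencing in 11 libraries of sorted mouse cells. Group 2 innate lymphoid cells (ILC2), lymphocytes of tissues that make type 2 cytokines, came from the lung and were sorted as ZsGreen-negative (n = 5) or ZsGreen-positive (n = 3). DN3 cells (n = 3), precursors of T cells at a CD4- and CD8-negative stage, came from the thymus. All mice were 14 days old, untreated and of the genotype Cd3giCre Rosa26stopZsGreen, in which Cre driven from Cd3g removes a stop before the ZsGreen reporter, so that ZsGreen marks cells that expressed Cre or descend from such cells, and cells of all groups carried both alleles.

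Complex I (NADH dehydrogenase) and complex II (succinate dehydrogenase) pass electrons through ubiquinone to complex III, and cytochrome c carries them on to complex IV (cytochrome c oxidase), which gives them to oxygen. Complexes I, III and IV pump protons across the inner membrane, and complex V (ATP synthase) uses their return to make ATP. The mitochondrial DNA is transcribed as long RNAs from both strands that are cut into rRNAs, tRNAs and the mRNAs of a few core subunits of complexes I, III, IV and V, whereas nuclear genes encode the other subunits, all of complex II and the assembly factors, so that each complex except II is built from both genomes.

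Part of the mitochondrial sequence stands a second time in the nuclear genome, which limits what can be read from these genes. In the GENCODE annotation of the GRCm38 build, 7 pseudogenes on chromosome 1 (24611535 to 24616197, minus strand) matched 7 mitochondrial mRNAs at 98% identity or more over at least 200 bases. The copies covered at least 99.0% of mt-Co2, mt-Atp6, mt-Co3, mt-Nd3 and mt-Nd4l, 63.6% of mt-Nd4 and 31.3% of mt-Co1. mt-Atp8 lies between mt-Co2 and mt-Atp6 in the same stretch and is grouped with the copied genes below. No such copy was found for mt-Nd1, mt-Nd2, mt-Nd5, mt-Nd6 and mt-Cytb. The first 60 bases of 2 genes and of their copies are shown because both mitochondrial calls in the lung fell on copied genes: mt-Co3 was identical to its copy over the 783 bases aligned, and mt-Nd3 differed only by T3C (positions from 1 at the gene's first base, the mitochondrial base first), given in capitals.
mt-Co3: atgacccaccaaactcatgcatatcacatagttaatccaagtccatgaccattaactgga
Gm28437: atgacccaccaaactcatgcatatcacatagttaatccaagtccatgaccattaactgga
mt-Nd3: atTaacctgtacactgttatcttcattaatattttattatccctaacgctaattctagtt
Gm28438: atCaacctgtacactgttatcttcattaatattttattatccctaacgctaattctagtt
Reads that lie wholly within a stretch identical in both cannot be assigned to 1 of the genes by sequence. How the counting treated them is not given in the sources used here. Per kilobase of gene, the 6 copied mRNAs stood at 10.4 (mt-Nd4l) to 159.7 (mt-Co2) CPM over all libraries, against 517 (mt-Nd5) to 2733 (mt-Cytb) CPM for the 5 with no copy. Their counts are therefore uncertain as levels of mitochondrial RNA. The 7 copy entries together held 123 to 317 CPM per library and the 6 copied mRNAs 121 to 312 CPM, and in both sums ZsGreen-negative library 5 was the highest. CPM here and below are counts scaled to library size with TMM factors over the 11 libraries.

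**Figure D1:**
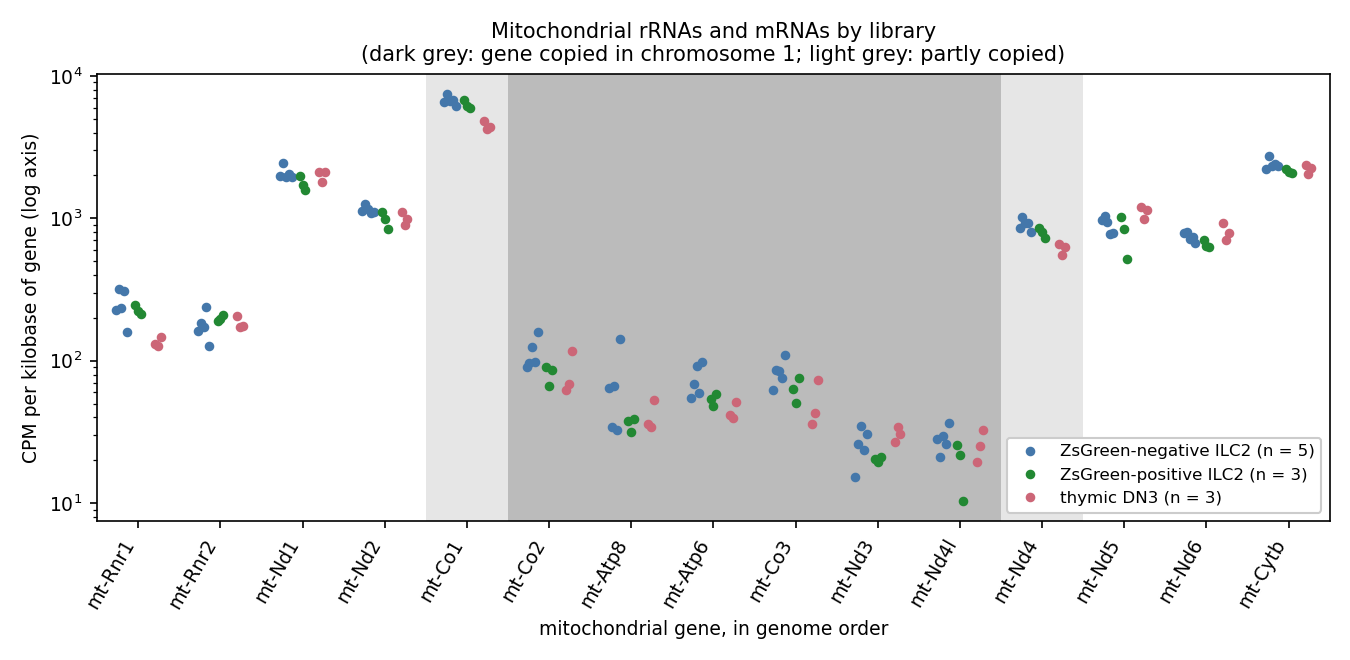
Levels of the mitochondrial rRNAs and mRNAs in CPM per kilobase of gene (vertical log axis) for each library (points, coloured by group), with genes in genome order. The dark grey stretch holds the 6 copied mRNAs, all below 160 CPM per kilobase, and the light grey bands mt-Co1 and mt-Nd4, which are partly copied.

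Total counts were 4495260 to 17627469 per library. The 12 ILC2 markers summed to 11093 to 14501 CPM in lung libraries and 1487 to 1517 CPM in DN3, and the 10 DN3 markers to 1297 to 1582 CPM and 8737 to 8880 CPM. Il2ra is in both lists and counts in both sums. It was the 1 ILC2 marker called higher in DN3 (log2 fold change 0.29), and the other 11 were called lower. The labels do not tie the libraries of a group to separate animals, and the spread that p-values rest on may be technical. DN3 libraries have a batch date that no lung library shares, so in each comparison with them batch, tissue and cell type cannot be told apart. Between lung and DN3 libraries summed markers of lung structural cells (epithelium, endothelium, fibroblasts) also differed (604 to 3518 CPM against 227 to 257 CPM in sum). The sum mixes directions: of 30 tested, 26 were called lower in DN3 and 4 higher, where 42.1% and 36.7% of all genes were. The nuclear RNA Malat1 differed too (2883 to 5648 CPM against 1568 to 1627 CPM), and the part of these markers or of Malat1 in the results on DN3 was not tested. In bulk RNA, fewer cells of a type and less RNA per cell cannot be told apart either.

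In ZsGreen-positive against ZsGreen-negative lung ILC2, no nuclear gene of oxidative phosphorylation passed the test. edgeR's quasi-likelihood test with Benjamini-Hochberg (BH) adjustment over 13771 genes, at a threshold of 0.05 and with batch as a term, called 0 of the 88 nuclear members that could be tested, where 4.52% of all genes were called. None of the 88 had an unadjusted p under 0.05 in this fit, against 16.8% of all genes. In alternative fits up to 6 nuclear members did, as within the 2024 batch alone. DESeq2 and limma voom also called 0 after adjustment. The median log2 fold change was -0.04 over the 88 and -0.00058 over all genes tested. For 77 of the 88 members the approximate 95% interval of the log2 fold change lay within 0.5 of 0, and for 87 within 1.
The extremes were Atp5if1, the inhibitor of the ATP synthase, at -0.29 ± 0.19 (SE), and Cox6b2, an isoform of a complex IV subunit known from testis, at 0.55 ± 0.49. Cox6b2 rested on few counts, with 0.86, 0.535, 2.67, 0.991 and 1.10 CPM in ZsGreen-negative and 1.16, 1.84 and 2.14 CPM in ZsGreen-positive libraries. The smallest p belonged to Atp5mk, a small subunit of the ATP synthase membrane part, with 97.02, 86.2, 97.1, 94.3 and 82.5 CPM in ZsGreen-negative and 79.7, 77.3 and 82.9 CPM in ZsGreen-positive libraries (log2 fold change -0.17 ± 0.09, adjusted p = 0.343). The groups overlap for Atp5mk, and Ndufs1, the largest subunit of complex I, was the only nuclear member whose groups did not: it read 81.4, 73.3, 73.8, 71.3 and 69.3 CPM in ZsGreen-negative and 67.2, 59.1 and 68.5 CPM in ZsGreen-positive libraries, and its change was not called. Of all genes tested, 4.84% stood lower and 5.32% higher in ZsGreen-positive libraries without overlap.

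The mitochondrial mRNAs stood lower in ZsGreen-positive ILC2 by fitted change, all 13 of them, but only 2 passed the test, and both have an identical copy on chromosome 1. Called lower were mt-Co3 and mt-Co2, core subunits of complex IV, and of all genes 2.18% were called lower and 2.35% higher. mt-Co3 read 48.7, 67.3, 66.3, 59.6 and 85.7 CPM in ZsGreen-negative and 49.4, 39.6 and 59.04 CPM in ZsGreen-positive libraries (log2 fold change -0.46 ± 0.12, adjusted p = 0.027). mt-Co2 read 61.9, 65.7, 85.5, 67.5 and 109 CPM in the former and 61.5, 45.3 and 58.4 CPM in the latter (log2 fold change -0.54 ± 0.14, adjusted p = 0.0353). Library 5 of the ZsGreen-negative group was the highest for both genes, and the groups overlap.
mt-Atp6, a subunit of the proton channel of the ATP synthase, missed the threshold at -0.52 ± 0.15 (adjusted p = 0.0608), as did mt-Atp8 at -0.99 ± 0.32 (adjusted p = 0.12), of which ZsGreen-negative library 5 held 29.05 CPM and every other library at most 13.6 CPM. Over the 6 copied mRNAs the median log2 fold change was -0.53, and over the 5 with no copy -0.16, where none was called. For each of those 5 the approximate 95% interval lay within 0.5 of 0. Among the 5 were mt-Cytb, the cytochrome b of complex III, at -0.16 ± 0.10, and mt-Nd1 and mt-Nd2, membrane subunits of complex I, at -0.21 ± 0.10 and -0.21 ± 0.09. The copy entries had a median log2 fold change of -0.50, and 1 of the 7 was called: Gm29216, the copy of mt-Co1, at -0.58 ± 0.13 (adjusted p = 0.0122).
Both mitochondrial calls were lost without ZsGreen-negative library 5, without ZsGreen-positive library 2 or 3, without the batch term and within the 2024 batch alone, each of which left 0 calls among the 13. Of 30 tested markers of lung epithelium, endothelium and fibroblasts, 6 were called higher in ZsGreen-positive libraries and none lower, and their sum was 604 to 1732 CPM in ZsGreen-negative and 1511 to 3518 CPM in ZsGreen-positive libraries. With the mean log2 level of those markers as a term, 0 of the 13 mRNAs were called, while mt-Co2 stood at -0.50 (adjusted p = 0.581) and mt-Co3 at -0.41 (adjusted p = 0.641), and calls over all genes went from 623 to 62. Over all 20 alternatives mt-Co2 lay between -0.75 and -0.36 and mt-Co3 between -0.58 and -0.29. Of 9 tested markers of macrophages and dendritic cells, none was called, and their sum was 75.5 to 318 CPM and 145 to 439 CPM. Among 4 tested B cell markers, 1 was called higher in ZsGreen-positive libraries and none lower. The B cell list summed to 16.95 to 18.66 CPM in ZsGreen-negative and 16.47 to 42.93 CPM in ZsGreen-positive libraries, which overlap. Neutrophil and mast cell markers and erythroid and platelet markers had 1 tested gene each (log2 fold change 1.45 and 1.01), and neither was called. The mean log2 level of the structural markers was 3.13 to 4.38 in ZsGreen-negative and 4.22 to 4.98 in ZsGreen-positive libraries. Beyond the fit with that level as a term, the part of these markers in the mitochondrial calls was not tested.
The rRNAs mt-Rnr1 (-0.04 ± 0.15) and mt-Rnr2 (0.23 ± 0.15) did not pass the test.

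**Figure D2:**
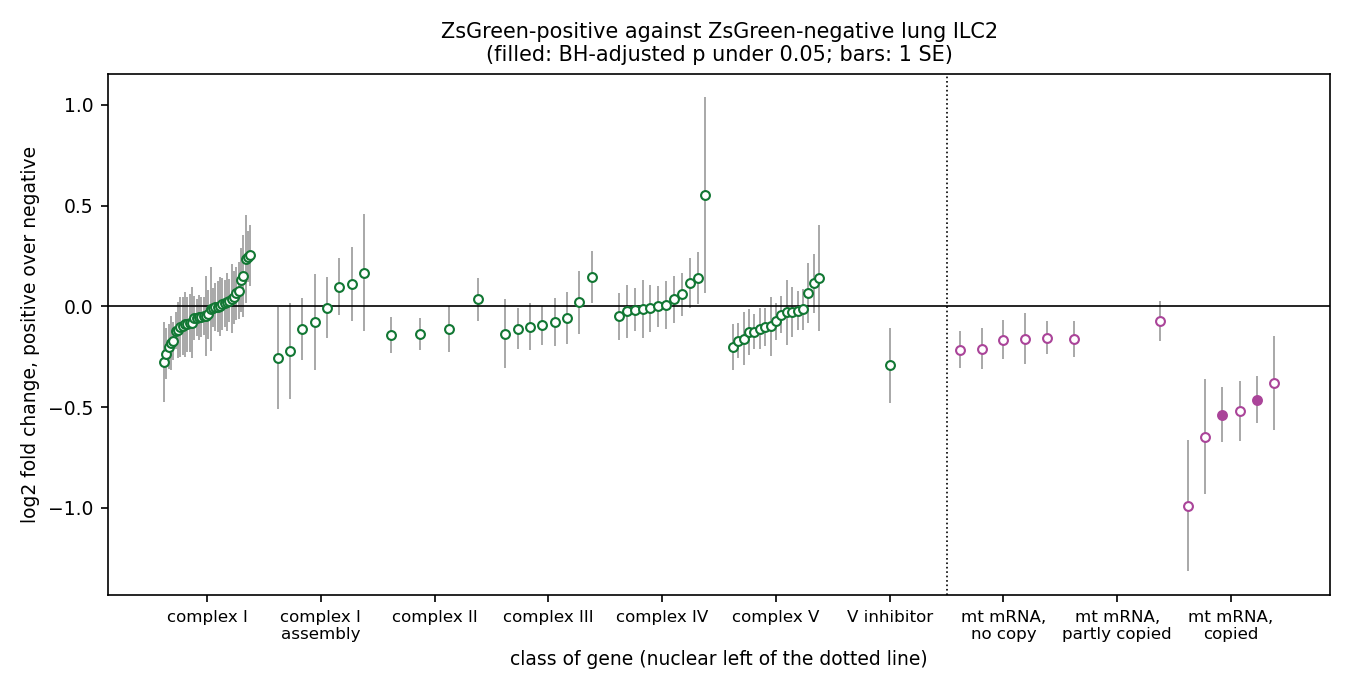
Log2 fold changes of the tested members between ZsGreen-positive and ZsGreen-negative lung ILC2 (vertical axis, bars 1 SE), sorted within each class of genes. Filled points passed the BH-adjusted threshold of 0.05: 2 copied mitochondrial mRNAs and 0 of 88 nuclear members.

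The members of each genome were then summed by library. Mitochondrial mRNA made up 1.74 to 2.09% of counts in ZsGreen-negative, 1.56 to 1.84% in ZsGreen-positive and 1.76 to 2.03% in DN3 libraries, so all groups overlap. Nuclear members made up 0.589 to 0.724% of the counts on nuclear genes in ZsGreen-negative and 0.570 to 0.675% in ZsGreen-positive libraries, which overlap, and 0.927 to 0.955% in DN3, above every lung library. After TMM scaling the nuclear sum no longer separated them, at 5948 to 7898 CPM in lung and 7542 to 7781 CPM in DN3 libraries, and the mitochondrial mRNA sum was 16352 to 22242 CPM and 14572 to 17004 CPM. The TMM factors were 0.900 to 0.954 in lung and 1.20 to 1.22 in DN3 libraries, and the 50 most abundant genes of each library took 13.5 to 14.7% and 10.8 to 10.996% of its counts.
The ratio of mitochondrial mRNA to nuclear member counts, which needs no scaling, was 2.91 ± 0.253 (SD, n = 5) in ZsGreen-negative, 2.74 ± 0.343 (n = 3) in ZsGreen-positive and 2.08 ± 0.187 (n = 3) in DN3 libraries. Each DN3 library (1.87 to 2.24) was below every lung library (2.35 to 3.12). Counting only the 5 mRNAs with no copy, the ratio was 0.867 to 1.24 in lung and 0.919 to 1.13 in DN3 libraries, and the groups overlap. mt-Co1 alone, the catalytic subunit of complex IV, held 51.6 to 55.9% of mitochondrial mRNA counts in lung and 42.5 to 44.7% in DN3 libraries.

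**Figure D3:**
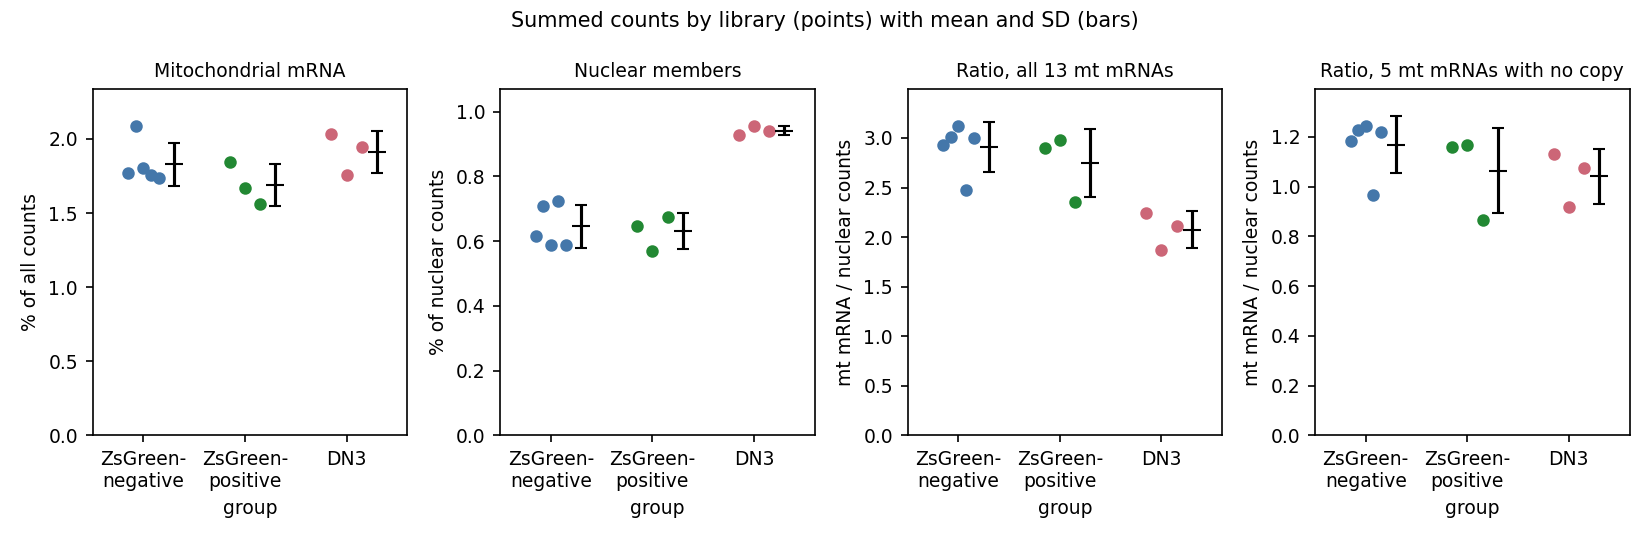
Summed counts by library (points) with the mean and SD of each group (bars): mitochondrial mRNA as a percentage of all counts, nuclear members as a percentage of nuclear counts, and the ratio of both with all 13 mRNAs and with the 5 that have no copy. DN3 libraries sit apart from lung libraries in the share of nuclear members and in the ratio over 13 mRNAs, and among them in the ratio over 5.

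Between DN3 and all lung ILC2 the nuclear genes of oxidative phosphorylation moved in both directions, mostly by less than 2-fold. Of the 88 tested, 35 were higher in DN3, 16 lower and 37 not called, where 36.7% of all 15132 genes were called higher and 42.1% lower. The median log2 fold change was 0.21 over the 88 and -0.09 over all genes. Upper-quartile scaling, which moved the median of all genes to 0.01, gave 53 higher and 13 lower. Set against each lung group alone, with the same DN3 libraries, 35 were higher and 15 lower than in ZsGreen-negative (35.5% and 41.2% of all genes), and 31 higher and 15 lower than in ZsGreen-positive ILC2 (34.8% and 40.3%). Without overlap, 26 of the 88 were higher in DN3 and 13 lower (32.6% and 36.7% of all genes). Only 7 members had a fitted change of 1 log2 unit or more, a size that 48.6% of all genes reached.

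Of the 38 tested subunits of complex I, 13 were higher in DN3, 7 lower and 18 not called. That is 34.2% higher and 18.4% lower, where 36.7% and 42.1% of all genes were, so the share of rises was near that of all genes. Ndufab1, the acyl carrier protein that serves complex I and fatty acid and iron-sulfur cluster synthesis, read 22.3 at the lowest, 28.05 at the median and 32.9 CPM at the highest of the 8 lung libraries and 62.2, 56.03 and 57.05 CPM in DN3 (log2 fold change 1.06 ± 0.09, adjusted p = 8.27e-10). All 3 DN3 libraries were above the highest lung library. Ndufa12, an accessory subunit, rose from 15.04 to 21.6 CPM to 34.3 to 37.8 CPM (0.96 ± 0.11), and Ndufc2, of the membrane arm, from 28.5 to 43.2 CPM to 60.1 to 62.98 CPM (0.83 ± 0.11). Among the core subunits that carry the electrons, Ndufv2 rose by 0.56 ± 0.09 and Ndufs1 by 0.31 ± 0.08. By contrast Ndufv1, which holds the flavin, stood at 79.1 to 101 CPM in lung and 81.6 to 103 CPM in DN3 libraries and was not called.
The called falls were in accessory subunits and Ndufs3, a core subunit. Ndufa13 read 49.9 at the lowest, 55.8 at the median and 60.4 CPM at the highest of the 8 lung libraries, and 33.4, 41.2 and 35.4 CPM in DN3 (-0.60 ± 0.09, adjusted p = 6.19e-06). Ndufa1, Ndufa2, Ndufb11 and Ndufv3 fell by 0.76 ± 0.15, 0.69 ± 0.13, 0.63 ± 0.11 and 0.41 ± 0.10 log2 units, each with all DN3 libraries below all lung libraries. Ndufa4, named for complex I and known as a subunit of complex IV, did not pass the test (0.10 ± 0.10).

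Of the 8 assembly factors of complex I, 4 were higher in DN3 and 1 was lower (50% and 12.5%, against 36.7% and 42.1% of all genes). Ndufaf1, which helps to build the membrane arm, read 5.34 at the lowest, 7.24 at the median and 10.1 CPM at the highest of the 8 lung libraries, and 17.1, 20.5 and 18.2 CPM in DN3 (1.34 ± 0.17, adjusted p = 1.65e-07). Ndufaf4, another assembly factor, read 14.2 at the lowest, 15.5 at the median and 17.5 CPM at the highest of the 8 lung libraries, and 35.4, 34.5 and 32.2 CPM in DN3 (1.13 ± 0.10, adjusted p = 9.95e-10). For both genes the groups did not overlap.

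Complex II, whose 4 subunits are all nuclear, showed 2 calls, both in the membrane anchors: Sdhd rose from 49.5 to 71.5 CPM to 84.6 to 93.1 CPM (0.61 ± 0.10) and Sdhc from 61.7 to 78.4 CPM to 80.3 to 93.01 CPM (0.28 ± 0.08). The catalytic pair was not called, with Sdha at 0.07 ± 0.07 and Sdhb at 0.09 ± 0.09, and the approximate 95% interval of both lay within 0.5 of 0. Complex II thus had 50% higher and 0% lower, where 36.7% and 42.1% of all genes were. In complex III, 4 of 8 were higher and 1 was lower (50% and 12.5%). Its core proteins Uqcrc1 (0.30 ± 0.10) and Uqcrc2 (0.41 ± 0.09) were higher in DN3, and the Rieske iron-sulfur protein Uqcrfs1 read 71.6 to 101 CPM in lung and 77.98 to 89.6 CPM in DN3 libraries. Uqcrh, the hinge protein next to cytochrome c1, read 102 at the lowest, 127 at the median and 162 CPM at the highest of the 8 lung libraries, and 77.98, 75.4 and 84.99 CPM in DN3 (-0.71 ± 0.10, adjusted p = 2.83e-06).

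Complex IV had 1 of 12 tested members higher and 4 lower (8.33% and 33.3%, against 36.7% and 42.1% of all genes). Its summed level was 996 to 1066 CPM in DN3 and 1049 to 1432 CPM in lung libraries. The member that rose was Cox6b2, which read 0.535 at the lowest, 1.13 at the median and 2.67 CPM at the highest of the 8 lung libraries, and 15.7, 18.2 and 20.5 CPM in DN3, a 13.2-fold difference (log2 3.73 ± 0.24, adjusted p = 2.30e-12). Every DN3 library was above every lung library. Its widely expressed counterpart Cox6b1 read 71.99 to 106 CPM in lung and 67.5 to 79.7 CPM in DN3 libraries and was not called (-0.19 ± 0.11, adjusted p = 0.111).
Cox7a2l, which binds complex III to complex IV in supercomplexes, read 198 at the lowest, 230.0 at the median and 266 CPM at the highest of the 8 lung libraries, and 137, 127 and 122 CPM in DN3 (-0.82 ± 0.10, adjusted p = 7.01e-08), with no overlap. Cox6a1 (-0.48 ± 0.11), Cox4i1 (-0.31 ± 0.09) and Cox7a2 (-0.33 ± 0.13), the common isoforms of their subunits, also fell, the last no longer so without ZsGreen-positive library 3, DN3 library 1 or DN3 library 3 or with upper-quartile scaling, and Cox5a (0.15 ± 0.11), Cox5b (0.21 ± 0.11) and Cox8a (-0.16 ± 0.10) did not pass the test. The tissue-restricted isoforms other than Cox6b2 were at the edge of detection. Of the 14 nuclear entries too low to test, Cox7b2, Cox8c and a second entry of the complex V gene Atp5po had 0 counts in all 11 libraries. That allows up to 0.0466 CPM over the lung libraries and 0.120 CPM over the DN3 libraries from counting error. Cox8b, Cox6a2, Cox4i2 and Cox7a1, known from muscle or lung, reached at most 1.65 CPM in any library. Ndufa4l2, a hypoxia-induced relative of Ndufa4, reached 2.02 CPM in ZsGreen-positive library 3 and at most 1.16 CPM elsewhere.

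Complex V had 10 of 17 tested members higher and 3 lower (58.8% and 17.6%, against 36.7% and 42.1% of all genes). The summed level of its members was 3522 to 3581 CPM in DN3 against 2468 to 3287 CPM in lung libraries. The catalytic subunit Atp5f1b read 644 at the lowest, 699 at the median and 812 CPM at the highest of the 8 lung libraries, and 1121, 1137 and 1116 CPM in DN3 (0.67 ± 0.08, adjusted p = 7.95e-08). Its partner Atp5f1a rose by 0.50 ± 0.09. The c subunit of the rotor is encoded by 3 genes for 1 mature protein. Atp5mc1 read 38.4 at the lowest, 48.3 at the median and 63.2 CPM at the highest of the 8 lung libraries, and 100.2, 98.8 and 99.7 CPM in DN3 (1.03 ± 0.11, adjusted p = 3.41e-08), with no overlap, while Atp5mc2 (0.25 ± 0.08) and Atp5mc3 (0.33 ± 0.10) had smaller rises, that of Atp5mc2 not called without DN3 library 3. Atp5if1 read 7.92 at the lowest, 9.37 at the median and 12.4 CPM at the highest of the 8 lung libraries, and 22.8, 17.9 and 19.3 CPM in DN3 (1.02 ± 0.14, adjusted p = 5.47e-07).
The 3 that fell were Atp5mk, Atp5f1d and Atp5f1e, the last of which was not among the members chosen for naming. Atp5mk, which holds ATP synthases together as dimers, read 42.6, 46.5 and 42.7 CPM in DN3 against 77.3 to 97.1 CPM in lung libraries, without overlap (-0.98 ± 0.08, adjusted p = 3.73e-10). Atp5f1d, the delta subunit of the central stalk, fell from 175 to 256 CPM to 129.6 to 142 CPM (-0.57 ± 0.11).

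**Figure D4:**
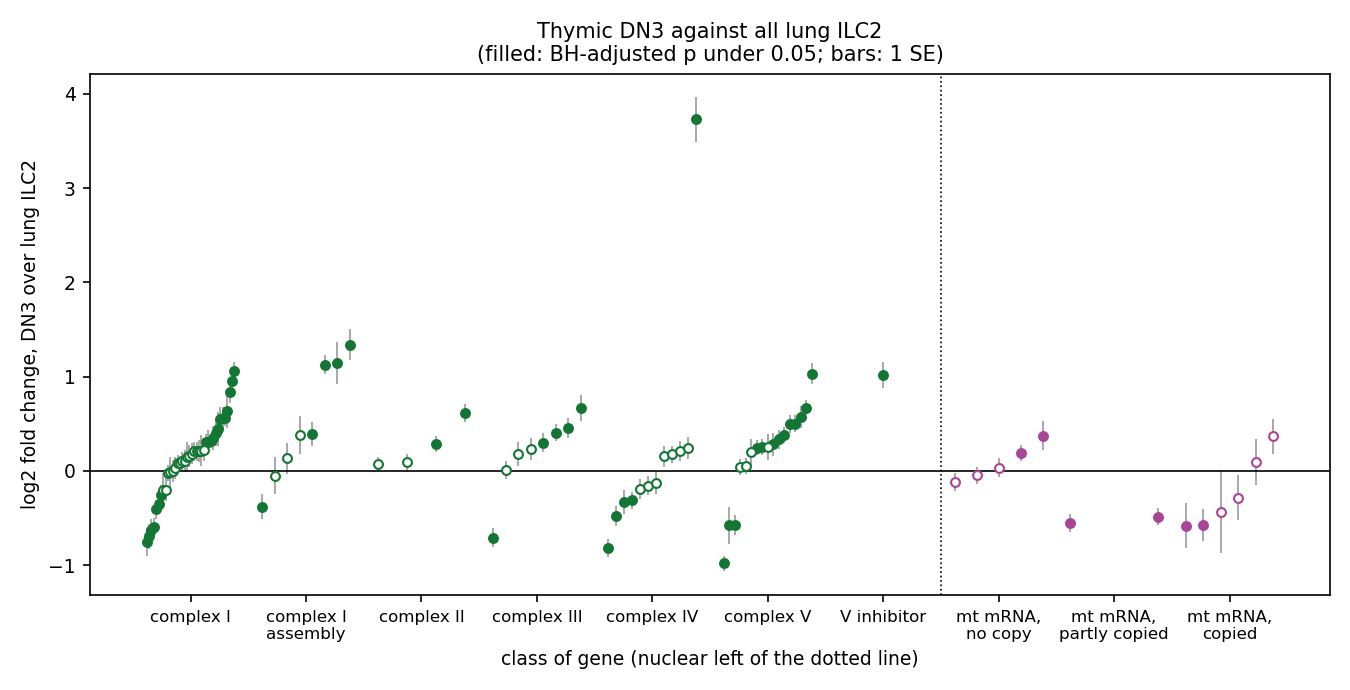
Log2 fold changes of the tested members between DN3 and all lung ILC2 (vertical axis, bars 1 SE), sorted within each class. Filled points passed the BH-adjusted threshold of 0.05. Every class of nuclear genes with more than 4 tested members holds calls in both directions, and Cox6b2 stands alone at 3.73.

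**Figure D5:**
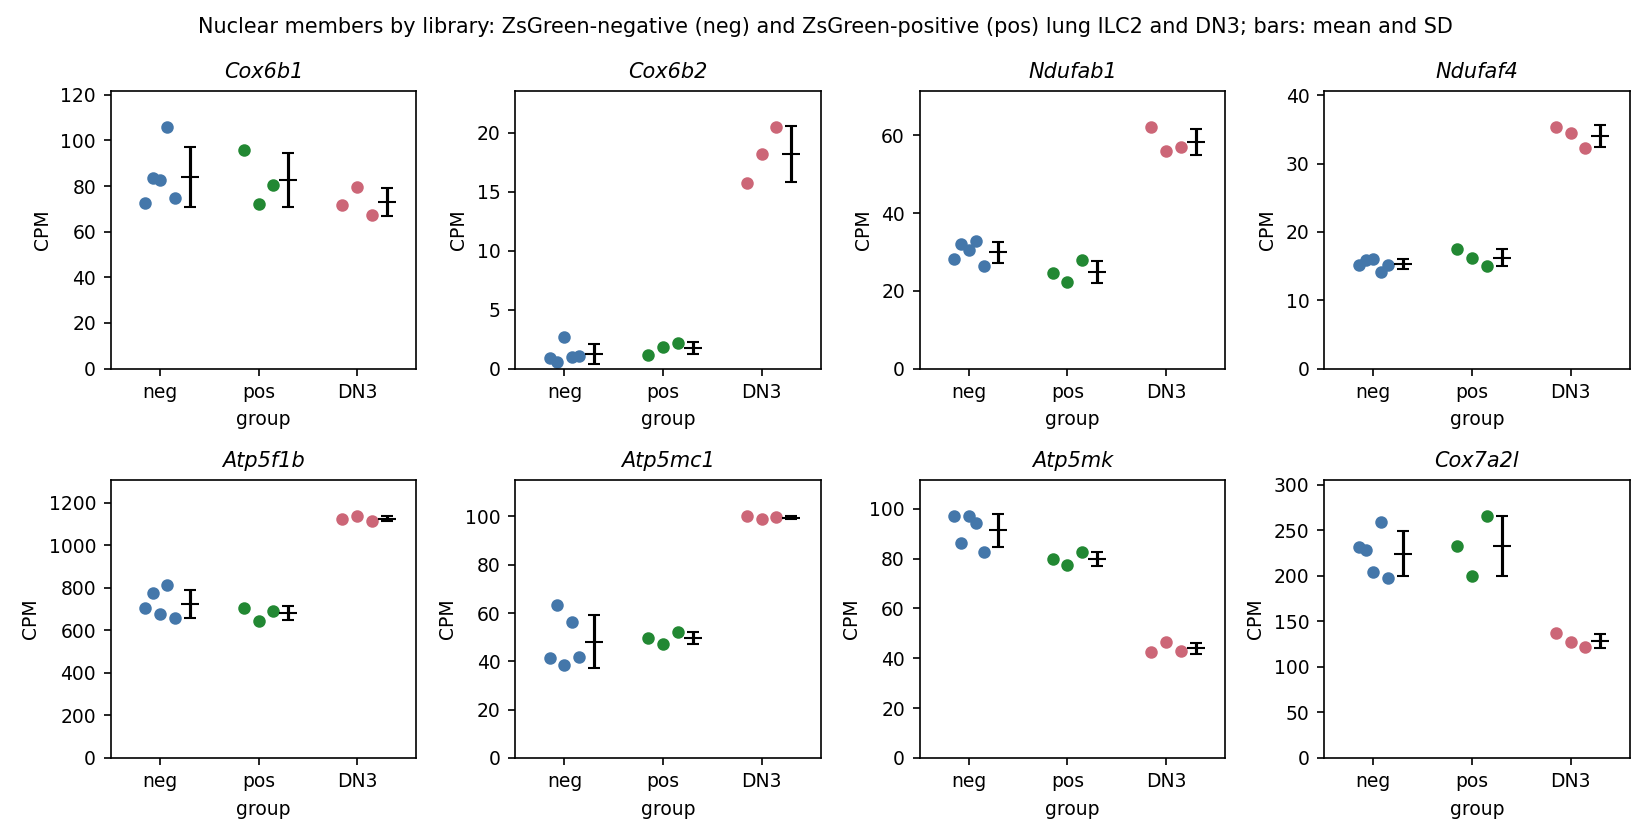
CPM by library (points) with the mean and SD of each group (bars) for 8 nuclear members. Cox6b2, Ndufab1, Ndufaf4, Atp5f1b and Atp5mc1 are higher and Atp5mk and Cox7a2l lower in all 3 DN3 libraries than in every lung library, and Cox6b1 overlaps.

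Nuclear genes of the respiratory chain are known targets of NRF1 and of the ETS factor GABP, and promoters were searched for the palindromic NRF1 consensus and for CCGGAAG (ETS), on both strands, from 250 bases before to 50 after the RefSeq start (GRCm38.p6). The NRF1 consensus, printed in capitals in the Ndufaf4 promoter below, reads the same on both strands, and the motifs were counted separately. RefSeq held a promoter for 78 of the 102 nuclear members, with that of Atp5po counted for both of its entries. The NRF1 letters were in 7 of them (8.97%) against 1.47% of 17491 protein-coding genes, and the ETS letters in 18 (23.1%) against 12.9%. At least 1 of them was in 9 of 28 members higher in DN3, in 4 of 13 lower and in 10 of 32 not called, which is 32.1%, 30.8% and 31.2%. Shown are the 150 bases before the start, with matches in capitals, for the 2 isoforms of 1 subunit that moved differently and for an assembly factor with an NRF1 match: Cox6b1 (chr7:30626115-30626264, minus strand) has an ETS match, Cox6b2 (chr7:4753095-4753244, minus strand) has neither, and Ndufaf4 (chr4:24897933-24898082, plus strand) has the NRF1 letters.
Cox6b1: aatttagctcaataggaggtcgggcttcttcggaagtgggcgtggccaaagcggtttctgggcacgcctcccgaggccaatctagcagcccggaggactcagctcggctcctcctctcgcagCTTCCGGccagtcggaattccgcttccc
Cox6b2: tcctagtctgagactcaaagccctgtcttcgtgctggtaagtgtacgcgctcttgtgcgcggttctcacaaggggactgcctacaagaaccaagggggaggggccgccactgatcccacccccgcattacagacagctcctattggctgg
Ndufaf4: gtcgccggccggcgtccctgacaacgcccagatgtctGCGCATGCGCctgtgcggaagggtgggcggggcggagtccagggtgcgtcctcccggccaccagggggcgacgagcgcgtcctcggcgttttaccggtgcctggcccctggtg
The match in Cox6b1 begins 28 bases and that in Ndufaf4 113 bases before the start. A match describes the letters only.

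On the mitochondrial side, 2 of 13 mRNAs were higher in DN3 and 4 were lower, or 15.4% and 30.8%, against 36.7% and 42.1% of all genes. The partly copied mt-Co1 and mt-Nd4 fell. mt-Co1 read 9139 at the lowest, 10190.2 at the median and 11553 CPM at the highest of the 8 lung libraries, and 7397, 6521 and 6787 CPM in DN3 (-0.55 ± 0.09, adjusted p = 1.61e-05). mt-Nd4, a proton-pumping subunit of complex I, read 1004 at the lowest, 1178 at the median and 1403 CPM at the highest of the 8 lung libraries, and 913, 765 and 867 CPM in DN3 (-0.49 ± 0.09, adjusted p = 5.06e-05). Both were below every lung library in all 3 DN3 libraries.
The copied mt-Atp6 (-0.57 ± 0.17) and mt-Co3 (-0.58 ± 0.24, adjusted p = 0.0436) were also called lower, with overlap. The call for mt-Co3 was lost in 11 of 21 alternatives, among them leaving out DN3 library 1 or 2, ZsGreen-negative library 2, 3, 4 or 5, or ZsGreen-positive library 3. Of the 5 mRNAs with no copy, mt-Nd5 and mt-Nd6, subunits of complex I, were called higher, and mt-Nd1 (0.04 ± 0.10), mt-Nd2 (-0.12 ± 0.09) and mt-Cytb (-0.05 ± 0.09) were not called. mt-Nd5 read 943 at the lowest, 1621 at the median and 1882 CPM at the highest of the 8 lung libraries, and 2194, 1811 and 2073 CPM in DN3 (0.37 ± 0.16, adjusted p = 0.0388). mt-Nd6 read 326 to 416 CPM and 368 to 484 CPM (0.19 ± 0.08, adjusted p = 0.0413). The groups overlap for both, and both calls were lost without ZsGreen-positive library 2, DN3 library 1 or DN3 library 3, that of mt-Nd5 also without ZsGreen-negative library 4 or 5 and that of mt-Nd6 without ZsGreen-positive library 1. mt-Nd6 lies on the strand opposite to mt-Nd5 and overlaps its end, and without strand information reads from the overlap cannot be told apart. Set against each lung group alone, with the same DN3 libraries, mt-Co1 and mt-Nd4 were called lower both times, and none of the other 11 mRNAs was called both times. Against ZsGreen-negative ILC2 0 of 13 were higher, with mt-Nd5 at 0.30 ± 0.17 (adjusted p = 0.115) and mt-Nd6 at 0.13 ± 0.09 (adjusted p = 0.215), and mt-Co3 and mt-Atp6 were also lower. Against ZsGreen-positive ILC2 mt-Nd3, mt-Nd5 and mt-Nd6 were higher, and mt-Atp6 at -0.27 ± 0.20 (adjusted p = 0.216) and mt-Co3 at -0.33 ± 0.28 (adjusted p = 0.303) were not called. With the counts of the copies added to their genes, 2 mRNAs were again higher and 4 lower.

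The rRNA mt-Rnr1, of the small subunit of the mitochondrial ribosome, read 151 at the lowest, 220.5 at the median and 306 CPM at the highest of the 8 lung libraries, and 126, 122 and 139 CPM in DN3 (-0.83 ± 0.19, adjusted p = 0.0017), below all lung libraries. mt-Rnr2, of the large subunit, read 201 to 378 CPM in lung and 272 to 325 CPM in DN3 libraries. An mRNA library does not aim at rRNAs, so these counts are uncertain as levels of mitochondrial rRNA. Mitochondrial tRNAs, short RNAs that an mRNA library holds mainly as parts of longer transcripts, gave 149 to 352 counts per library, most of them on mt-Tp (141 to 337 in lung and 132 to 186 in DN3 libraries). The other 21 tRNAs together gave 8 to 23 counts in lung and 76, 82 and 83 counts in DN3 libraries, or 1.10 to 3.47 and 8.14 to 11.7 CPM, with no overlap. This sum was formed after its values were seen and is given without a test. Of the tRNAs that could be tested, mt-Tp fell by 0.62 ± 0.17 log2 units (adjusted p = 0.00252). mt-Tl1, which carries leucine and lies between mt-Rnr2 and mt-Nd1, had 0 to 4 counts in lung and 24, 18 and 31 counts in DN3 libraries (3.54 ± 0.49). It passed the count filter only through the DN3 libraries, so only a rise could have been tested, and no p is given. It also stayed below the 5 CPM set for naming members by p.

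Genes that serve oxidative phosphorylation but fall outside the rule were set beside the members. Of 127 genes tested over 6 lists, 3 were called, all 3 of them lower in ZsGreen-positive ILC2, which is 2.36% of the lists where 2.18% of all genes were called lower and 4.52% in either direction: Fastkd3, a mitochondrial RNA-binding protein (-0.87 ± 0.12, adjusted p = 3.0e-04), Dld, a dehydrogenase of the pyruvate and 2-oxoglutarate complexes (-0.40 ± 0.09, adjusted p = 0.0122), and Coq10b, a ubiquinone-binding protein (-0.37 ± 0.09, adjusted p = 0.0214). Fastkd3 stood at 56.8 ± 7.78 (SD) CPM in ZsGreen-negative, 30.003 ± 6.24 CPM in ZsGreen-positive and 27.9 ± 1.45 CPM in DN3 libraries.
Between DN3 and lung ILC2 all 6 lists held calls in both directions, and over the 127 genes 59.1% were higher and 17.3% lower, where 36.7% and 42.1% of all genes were. By list, the share called higher ran from 46.2% (the carriers and the ubiquinone genes) to 77.1% (mitochondrial DNA expression). Of 35 genes for expression and upkeep of mitochondrial DNA, 27 were higher in DN3 and 4 lower, with a median log2 fold change of 0.85. Tefm, the mitochondrial transcription elongation factor, rose from 1.77 ± 0.457 to 25.1 ± 1.57 CPM (3.90 ± 0.18), while both subunits of the mitochondrial DNA polymerase fell, Polg2 by 2.86 ± 0.10 and Polg by 1.67 ± 0.09 log2 units. Of 11 regulators of mitochondrial biogenesis, 8 were higher and 1 lower. Tfam, which packages mitochondrial DNA, rose from 23.7 ± 3.22 to 70.2 ± 5.06 CPM (1.56 ± 0.10), and the coactivator Pprc1 by 1.49 ± 0.09. The muscle-associated regulator Perm1 rose by 2.08 ± 0.20.
Of 13 other subunits and carriers, 6 were higher and 3 lower. Slc25a3, the phosphate carrier that feeds the ATP synthase, fell from 2248 ± 335 to 318 ± 11.8 CPM (-2.82 ± 0.13), whereas Slc25a5, an ADP/ATP carrier, rose by 0.89 ± 0.10 and Vdac1, the channel of the outer membrane, by 1.23 ± 0.07. Of 17 genes of the tricarboxylic acid cycle, 10 were higher and 4 lower, led by Idh2, the mitochondrial NADP isocitrate dehydrogenase, at 32.3 ± 2.87 CPM in lung and 223 ± 6.78 CPM in DN3 libraries (2.79 ± 0.07). Fh1, fumarase, rose by 0.99 ± 0.09. Of 39 assembly factors outside the rule, 19 were higher and 6 lower: Lyrm7, a chaperone of the Rieske protein, rose by 2.68 ± 0.24 and Coa7, a factor for complex IV, by 1.85 ± 0.16, while Cox10, which makes heme O for complex IV, fell by 1.11 ± 0.09 log2 units. Of 13 genes of ubiquinone synthesis and handling, 6 were higher and 4 lower. Coq10b fell from 238 ± 39.03 to 5.15 ± 0.485 CPM (-5.51 ± 0.13), Coq8a, a kinase-like protein of the synthesis complex, fell by 1.37 ± 0.14 log2 units, and the hydroxylase Coq7 rose by 1.85 ± 0.18.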

How the data were processed

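Per the labels' protocols, a PicoPure kit was used for RNA and a Watchmaker Genomics kit for mRNA libraries. The authors deposited whole-number counts per gene, in 2 tables whose shared lung columns were identical. The submitters' processing notes name GRCm39 and DESeq2. In the sources used here, aligner, counter, annotation and strand are not given. Counts were tested with edgeR 4.0.16 in R 4.3.3 (TMM scaling, filterByExpr with a minimum count of 10, quasi-likelihood F test, BH threshold 0.05). The lung fit used 8 libraries with batch as a term. The DN3 fit used 11 libraries with no batch term and weighted lung groups by library number. SE is the log2 fold change over the root of F, and 95% intervals are 1.96 SE on either side. DESeq2 1.42.0 and limma 3.58.1 (voom) were alternatives. Copies were found with blastn 2.17.0 on GENCODE transcripts of GRCm38. The members and lists were chosen with earlier results of these data known. Named members were a fixed set of core subunits and isoforms, plus, per direction, up to 10 called members by p that reached 5 CPM in either group, and up to 3 called genes per other list. All 16 replicate pairs differed by more than sampling noise (chi-square over its degrees of freedom, 1.72 to 13.4). The test was checked to recover known changes on counts simulated with equal spread for all genes and no batch effect. Few genes changed there, as many up as down, so the check does not cover the DN3 comparison, where most genes were called.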

Additional observations from a re-analysis of the deposited data

Results flagged for a closer look

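Of 58 values examined over the 5 ZsGreen-negative libraries, 5 had 1 library far from the others by Dixon's criterion, which chance meets in about 1 in 20 groups. Library 2 held the highest share of mitochondrial mRNA, 2.09% of counts against 1.80% in the next, and the highest mt-Nd1, 2344 CPM against 1959.8 CPM. Library 4 held the highest Uqcrh, 162 CPM against 131 CPM, and the highest Atp5f1d, 256 CPM against 201 CPM. Library 3 held the highest Cox6b2, 2.67 CPM against 1.10 CPM, below the 15.7 to 20.5 CPM of DN3 libraries.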

How the results depend on the processing

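No nuclear member was called between the lung groups in any of the 20 alternative fits. Genes called over the whole lung table numbered 623, and 1010 with limma voom, 1081 without the filter on low counts, 298 in the 2024 batch, 240 with the replicate block, 62 with the structural marker score as a term and 286 to 751 without 1 library. Mitochondrial mRNAs called lower there numbered 2, and 4 with voom or without the filter, 0 with no batch term, in the 2024 batch, with the replicate block or with the marker score, and 0 to 4 without 1 library. In DN3 against lung, upper-quartile scaling called 53 nuclear members higher in place of 35, and mitochondrial mRNAs called higher numbered 2, and 1 with voom, without the filter or with the replicate block, and 0 to 3 without 1 library. The cause of these changes was not tested. Libraries with the same replicate number showed no sign of being pairs (correlations of deviations -0.138 to 0.0782). Several of them could not be pairs by batch: ZsGreen-negative and ZsGreen-positive library 3 had different batch dates, and DN3 libraries shared no date with lung libraries. The replicate block used the same numbers. Other pairings of the libraries were not tested.

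Signs turned only for changes that were not called and for sums. In DN3, mt-Cytb came to 0.052 with upper-quartile scaling and -0.10 to 0.012 without 1 library, mt-Nd4l to -0.042 with copy counts added and -0.11 to 0.25 without 1 library, and mt-Nd1 to -0.0042 to 0.11 without 1 library. Between the lung groups, mt-Nd5 came to 0.0042 in the 2024 batch and -0.32 to 0.0091 without 1 library, mt-Rnr1 to 0.078 with the marker score and -0.22 to 0.070 without 1 library, and Cox6b2 to -0.62 with the marker score. As log2 ratios of group means, the mitochondrial mRNA share in DN3 over lung was 0.11, 0.44 over mRNAs without a copy and -0.27 as CPM after TMM, the nuclear share 0.56 and 0.18 after TMM, and their ratio -0.45 and -0.12 over mRNAs without a copy. Between the lung groups the ratio was -0.08, and it lay between -0.29 and 0.017 over 10 alternative forms, with -0.15 to 0.017 without 1 library. The nuclear share there was -0.03, and -0.083 to 0.035 without 1 library. Copy counts added to their genes, mRNAs without a copy and sums after TMM were chosen after seeing the data. Of 71 changes given for single genes, 49 kept direction and call in every alternative fit. Low counts limit the precision of Cox6b2 (3 to 36 counts per lung library) and mt-Tl1 (0 to 4).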
